A study of Caenorhabditis elegans with 18 samples.

Results

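In small RNA libraries from early embryos of the nematode Caenorhabditis elegans, 212 windows of 1 kb held more reads in worms lacking set-25 than in worms that keep it, both with nrde-3 intact and with nrde-3 lost. They were taken from 20973 windows, which cover all of chromosome I and the first 5.9 Mb of chromosome II. The windows were chosen on measured values: a mean of at least 20 normalised reads in set-25, a set-25 mean at least 1.5 times the N2 mean, and a set-25;nrde-3 mean at least 1.5 times the nrde-3 mean. A normalised read is a read divided by the scaling factor of its library, the median ratio over 4986 windows that had 10 or more reads in all 18 libraries. Of the covered windows, 6480 reached the set-25 mean, 502 of these met the first ratio and 640 met the second. Values of set-25 against N2 and of set-25;nrde-3 against nrde-3 chose the windows and are given as a description, with no test.

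The strains were 6, each with 3 libraries: wild type N2 (Bristol), the single mutants nrde-3(tm1116), met-2(n4256) and set-25(n5021), and 2 double mutants, met-2;nrde-3 and set-25;nrde-3, which join these same alleles. The strains are named as labelled. Since met-2 and set-25 lie on chromosome III and nrde-3 on X, the data here hold no reads with which to check a genotype. Embryos from before the bean stage, grown for 60 to 65 h from synchronised larvae, were taken whole, so fewer cells holding a small RNA and less of it in each cell cannot be told apart. The labels speak of 2 independent cultures although each strain has 3 libraries, so p-values cover the spread among libraries, part of which may be technical.

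Worms make many small RNAs antisense to their own transcripts with RNA-dependent RNA polymerases, and Argonaute proteins carry them to matching transcripts. NRDE-3 is the Argonaute that takes such RNAs into the nuclei of somatic cells, where they act on transcription and on chromatin. MET-2 and SET-25 are methyltransferases for the same lysine of histone H3, a mark found over repeats and silent genes. In embryos MET-2 is known for the lower methylation states and SET-25 for the trimethylated state.

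Total reads in the covered regions ran from 1680028 to 4384593 per library. The met-2;nrde-3 replicates 1 and 2 stood apart: they had a read in 12.6% and 15.9% of the 20-bp bins of the chosen windows outside the right end of chromosome I, against 18.1% to 34.3% in the 16 other libraries. Rank correlations across 10730 windows were 0.815 to 0.889 among the met-2;nrde-3 libraries and 0.925 to 0.964 within the other groups. Counts of edgeR calls in pairwise comparisons that use met-2;nrde-3 are therefore also given with each library left out in turn. Without both of these libraries met-2;nrde-3 would have 1 left, with no spread of its own, so such counts are not given. The libraries labelled met-2;nrde-3 also resembled other strains more than met-2. Over the 201 chosen windows outside the right end their median rank correlation was 0.350 with the met-2 libraries, 0.776 with N2, 0.735 with nrde-3, 0.836 with set-25 and 0.848 with set-25;nrde-3, and over 6266 other windows it was 0.636 with met-2 and 0.861 to 0.882 with the rest. Whether these libraries carry the labelled genotype was not tested. Positions are those of genome build ce10, the annotation at hand was of another build, and the windows carry no gene names.

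Of the 212 windows, 11 lay within 13 kb of the right end of chromosome I, where the ribosomal RNA gene array lies, and 201 lay elsewhere. Those 11 held 22.8% to 32.8% of the reads per library in N2, 32.9% to 54.5% in nrde-3 and 52.8% to 60.5% in set-25. They held 56.3% to 68.7% in set-25;nrde-3, 44.0% to 52.8% in met-2 and 21.0% to 40.8% in met-2;nrde-3. The other 201 held 0.380% to 0.988% of the reads per library. Over these 201 the median of the window means was 25.3 normalised reads in N2, 23.6 in nrde-3, 50.2 in set-25 and 54.1 in the set-25 double mutant. For the strains that the choice did not use it was 22.3 (met-2) and 42.8 (met-2;nrde-3). The median ratio to N2 was 1.82 for set-25, with 13.8 as the highest, and 2.03 for set-25;nrde-3 to nrde-3, with 27.6 as the highest. The ratio was the larger one in the nrde-3 background in 124 of the 201 windows. Both ratios reached 2 in 41 windows, 3 in 5 and 5 in 4. All 3 set-25 libraries lay above all 3 of N2 in 188 of the 212 windows, where 12.7% of all windows tested did so, and all 3 of set-25;nrde-3 above all 3 of nrde-3 in 168, where 12.5% did so, contrasts that the choice used. All 212 windows passed the filter on low counts. Their set-25 reads, summed over 3 libraries, started at 60 with a median of 159.5, a floor that the choice favoured. Such sums started at 12 for N2 (median 127.5), 4 for nrde-3 (67.5) and 10 for set-25;nrde-3 (153). For the met-2 strain they started at 2 (83.5), and for its double mutant at 15 (123).

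**Figure D1:**
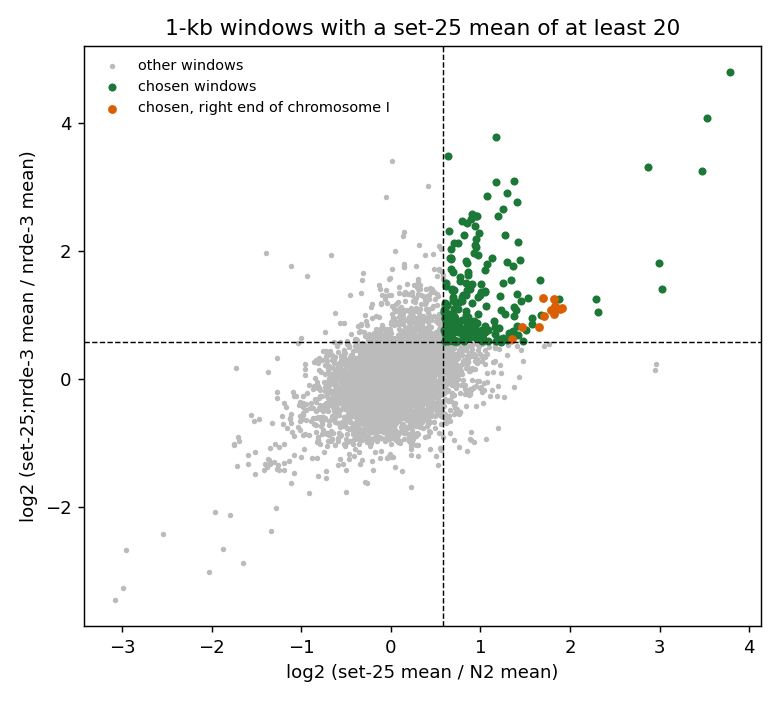
Each point is a 1-kb window with a set-25 mean of at least 20 normalised reads. The horizontal axis is the log2 ratio of set-25 to N2, the vertical axis the log2 ratio of set-25;nrde-3 to nrde-3, and dashed lines mark a ratio of 1.5. The 201 chosen windows (green) reach from the limits to ratios of 13.8 and 27.6, and the 11 at the right end of chromosome I (orange) lie together at set-25 to N2 ratios of 2.55 to 3.77.

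Membership depended on the scaling. With library totals in place of median ratios, 31 windows met the rule, all of them among the 212, 6 at the right end of chromosome I and 25 elsewhere. Under totals the median log2 ratio over the 6480 windows was -0.57 for set-25 to N2 and -0.49 for set-25;nrde-3 to nrde-3, while the rule's scaling puts both near 0 (0.02 and 0.01). Library totals include the reads of the 11 right-end windows, whose share differed among strains. The part of that share in these shifts was not tested. With TMM factors 193 windows met it, all among the 212. Windows at the limits differed little. The 2 windows just inside the ratio to N2 stood at 1.507 and 1.508 (I:2092001-2093000 and I:3139001-3140000), and the 2 just outside at 1.498 each (I:5819001-5820000 and II:3609017-3610016). For the other ratio, I:4690001-4691000 and II:1077017-1078016 stood inside at 1.501 and 1.505, with I:5721001-5722000 and I:2928001-2929000 outside at 1.491 and 1.496. Set-25 means at that limit were 20.05 and 20.09 inside (I:3138001-3139000 and II:1327017-1328016) and 19.6 and 19.7 outside (I:10414020-10415019 and I:309001-310000).

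The comparison of met-2 with N2 asked what happened at the same windows when the other methyltransferase was lost, and the answer went both ways. Of the 212 windows 66 were higher in met-2 and 65 lower (edgeR, adjusted p under 0.05 over all 10730 windows tested), which is 31.1% and 30.7% of them. Over all windows tested 15.4% were called higher and 23% lower. The median log2 fold change of the 212 was -0.02, against 0.02 over all windows, and single windows ran from -5.18 to 5.48. A change of at least 4-fold was called up in 26 windows and down in 34. The share of all windows with such changes is not given here, so these counts do not set the chosen windows apart. The N2 libraries are shared with the choice, in which a low N2 mean helped a window in. Under library totals the same test called 47 of the windows higher and 80 lower, with the median of all windows moved by -0.51. Of all 10730 windows tested it then called 486 higher and 3432 lower.

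In the nrde-3 background the calls for met-2 loss went mostly one way, which the choice favoured. Of the 212 windows 77 were higher in met-2;nrde-3 than in nrde-3 and 5 were lower, or 36.3% and 2.36%, against 4.03% and 4.14% of all windows tested. All 5 lower windows belonged to the group at the chromosome I right end. The median log2 fold change was 0.71 for the 212 windows and -0.01 for all windows tested. With each library of the compared groups left out in turn, the counts ran from 68 to 81 higher and 0 to 9 lower. The 5 became 0 without nrde-3 replicate 2 and 9 without met-2;nrde-3 replicate 2. The nrde-3 libraries are shared with the choice, in which a low nrde-3 mean helped a window in, and this favours calls of higher over nrde-3.

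The comparison of met-2;nrde-3 with met-2 used no library of the choice, apart from the shared scaling, filter and spread. Here 97 windows were higher and 43 lower, or 45.8% and 20.3%, where 24.1% and 18.9% of all windows tested were called. The median log2 fold change was 0.71, against -0.03 over all windows. With each library of these groups left out in turn, 90 to 97 were higher and 38 to 51 lower. A direct test of whether the met-2 difference was the same with and without nrde-3, the interaction, called 84 windows above 0 and 40 below 0, which is 39.6% and 18.9%, against 18.8% and 11.4% of all windows. Unlike the comparison above, the interaction also uses the N2 and nrde-3 libraries, whose low means helped windows into the choice. Under library totals it called 111 and 28, with the median of all windows moved by 0.74. Of all 10730 windows tested it then called 3273 above 0 and 346 below.

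The comparisons of met-2 with N2 and of met-2;nrde-3 with nrde-3 have no library in common, although each shares its second group with the choice. Of the 65 windows lower in met-2 than in N2, 35 were higher in met-2;nrde-3 than in nrde-3 and 0 were lower. Of the 66 windows higher in met-2, 27 were higher in met-2;nrde-3 and 5 were lower, and of the 81 windows not called in met-2, 15 were higher. The higher ones are 53.8%, 40.9% and 18.5% of these classes, and 10.5%, 4.72% and 1.45% of the same classes among all windows tested. The lower ones are 0%, 7.58% and 0% of these classes, and 7.99%, 6.59% and 2.09% among all windows tested. All 5 lower windows came from the adjoining right-end windows, which supplied 11 of the 66. Among the 55 windows of this class elsewhere, 0 were lower. For windows higher in met-2, the share of lower ones was thus near that of all windows only with the right-end windows included. The choice, which asked for low nrde-3 means, bears on these shares. These shares are given for all 18 libraries only. In the 65 windows the median of window means was 42.3 normalised reads in N2, 73.6 in set-25, 7.81 in met-2 and 75.6 in the met-2 double mutant. In the 66 windows it was 40.1 in N2, 75.8 in set-25, 166 in met-2 and 88.9 in the met-2 double mutant.

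**Figure D2:**
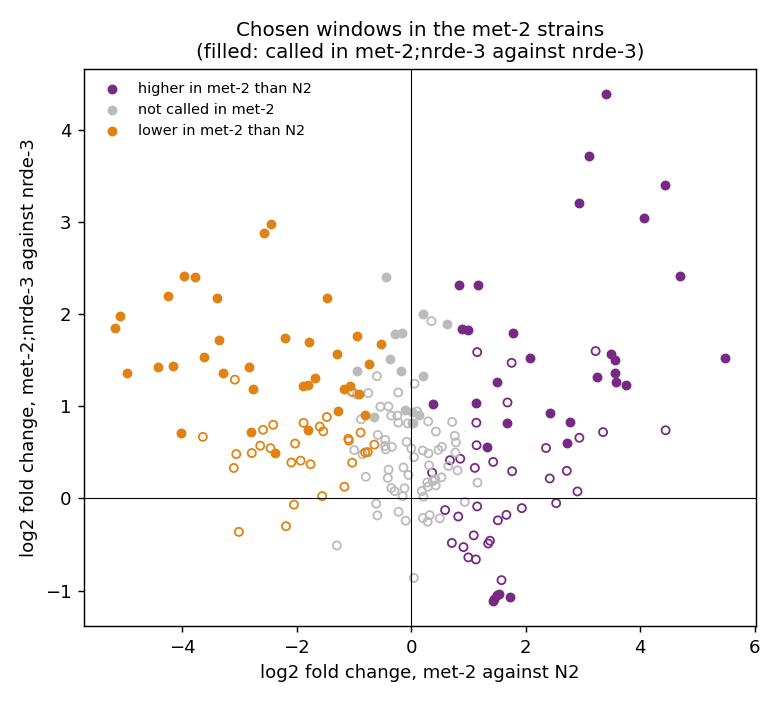
Each point is one of the 212 chosen windows, with the log2 fold change of met-2 against N2 on the horizontal axis and of met-2;nrde-3 against nrde-3 on the vertical axis. Colours give the edgeR call in met-2 (66 higher, 81 not called, 65 lower), and filled points were called in met-2;nrde-3. Filled orange points all lie above 0, where 35 windows that were lower in met-2 were higher in met-2;nrde-3.

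A run of 4 adjoining windows at I:3106001-3110000 shows the first of these patterns most fully. Summed over its 4 kb, the N2 libraries held 507, 488 and 477 normalised reads and the set-25 libraries 1050, 1022 and 1031. The nrde-3 libraries held 256, 262 and 227, and those of set-25;nrde-3 held 1388, 1459 and 1413. All libraries of either set-25 strain thus lay above every N2 and nrde-3 library, an order that the choice favoured. The met-2 libraries held 13.3, 13.8 and 24.7, from 60 reads in all, and those of met-2;nrde-3 held 1231, 888 and 928. So the run was nearly empty in met-2 and stood near the set-25 level in met-2;nrde-3. In its second window, I:3107001-3108000, the log2 fold change was -5.09 ± 0.24 (SE) in met-2 against N2 (edgeR adjusted p = 3.75e-16) and 6.21 ± 0.23 in met-2;nrde-3 against met-2 (adjusted p = 2.24e-18). In the last, I:3109001-3110000, these changes were -5.18 ± 0.25 and 6.10 ± 0.24 (edgeR adjusted p = 6.20e-16 and 9.80e-18). All 4 windows were also lower in nrde-3 than in N2, with changes of -1.23 ± 0.31, -0.86 ± 0.15, -1.15 ± 0.22 and -0.92 ± 0.16 (edgeR adjusted p = 0.016, 5.79e-04, 0.00101 and 4.27e-04).

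The reads of that run sat in separate blocks of neighbouring bins with empty stretches between them, and the blocks were the same in each strain that had reads. The bin with most reads in I:3107001-3108000, at I:3107621-3107640, held means of 35.2 normalised reads in N2, 21.2 in nrde-3, 88.6 in set-25, 132 in set-25;nrde-3, 1.46 in met-2 and 75.5 in the met-2 double mutant. The run ended sharply: the windows before and after it, I:3105001-3106000 and I:3110001-3111000, had means of at most 2.06 normalised reads in any strain. One more chosen window, I:3104001-3105000, lay 1 kb before it. There N2 held 20.1, 20.4 and 29.7, set-25 held 53.4, 55.9 and 49.0, and met-2 held 1.57, 0.859 and 3.66 normalised reads.

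**Figure D3:**
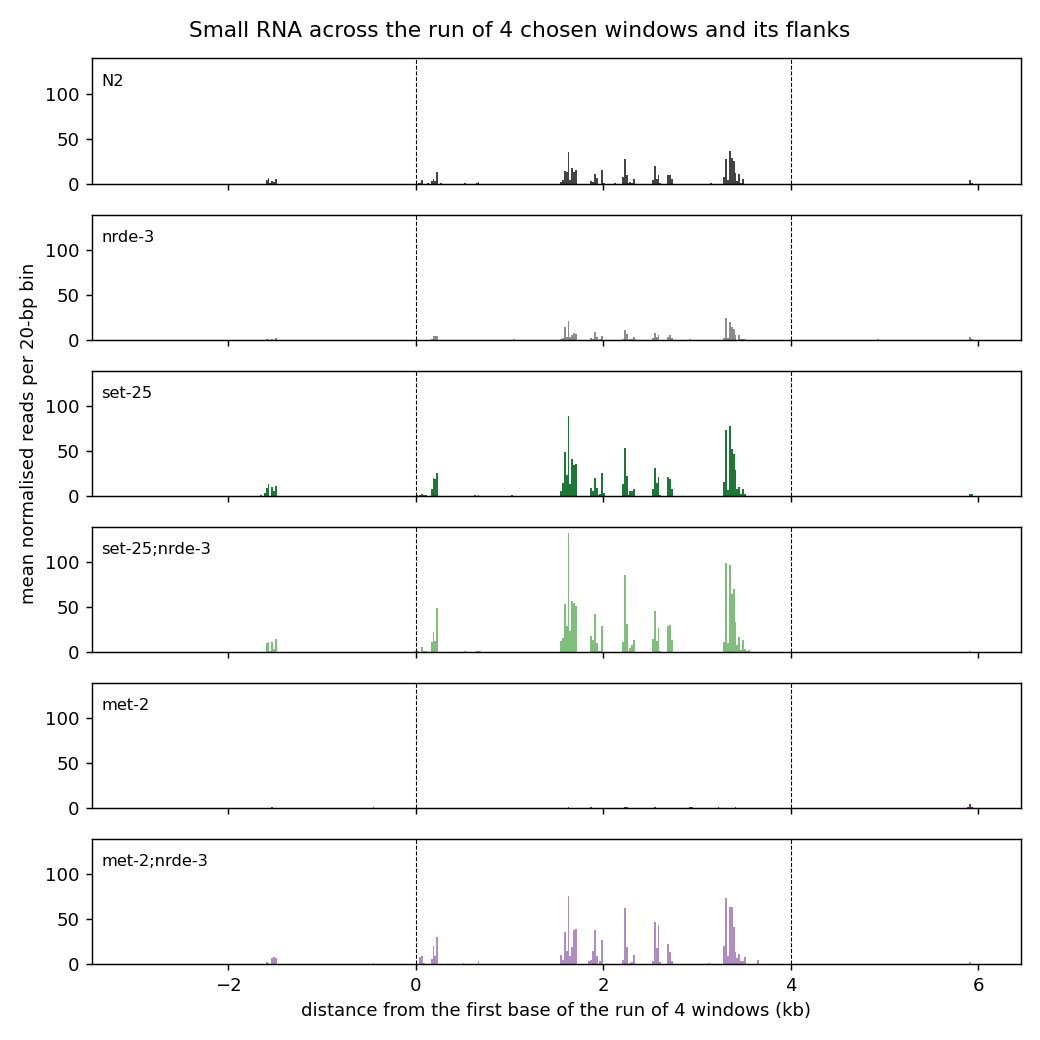
Mean normalised reads per 20-bp bin (3 libraries per strain) across the run of 4 chosen windows at I:3106001-3110000, by distance from its first base in kb, with dashed lines at its ends. All panels share 1 scale. The same blocks appear in N2, nrde-3, set-25, set-25;nrde-3 and met-2;nrde-3, and the met-2 panel is nearly empty.

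More abundant windows were also low in met-2. At II:3812017-3813016 the normalised reads were 757, 772 and 734 in N2, 1445, 1385 and 1269 in set-25, and 101, 107 and 94.3 in met-2. The met-2;nrde-3 libraries held 1266, 1299 and 1298, close together and near the set-25 values. The fall in met-2 was -2.80 ± 0.11 (edgeR adjusted p = 7.23e-18), and met-2;nrde-3 exceeded met-2 by 3.57 ± 0.11 and nrde-3 by 0.72 ± 0.10 (edgeR adjusted p = 6.33e-20 and 7.35e-06). The adjoining window II:3813017-3814016 fell in met-2 by -2.38 ± 0.12 (edgeR adjusted p = 8.12e-16). These 2 windows were added to those named by rule because of their values.

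At I:5271001-5272000 the N2 libraries held 412, 394 and 381 normalised reads and the set-25 libraries 2004, 1935 and 1962. The nrde-3 libraries held 850.5, 793 and 818, and those of set-25;nrde-3 held 1557, 1740 and 1796. Every library of either set-25 strain lay above every library of N2 and nrde-3, an order that the choice favoured. In met-2 the values were 39.2, 42.1 and 56.8, a log2 fold change of -3.01 ± 0.15 against N2 (edgeR adjusted p = 1.85e-15). In met-2;nrde-3 they were 503, 793 and 612, above met-2 by 3.70 ± 0.16 (edgeR adjusted p = 3.09e-17), while the difference from nrde-3 was -0.36 ± 0.13 (edgeR adjusted p = 0.0795). It was a single window: the windows on either side of it had set-25 to N2 ratios of 1.14 and 1.04.

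Some windows were emptied in met-2 down to single reads. At I:14129020-14130019, the 3 met-2 libraries held 0.785, 3.44 and 0 normalised reads, 5 reads in all, against 42.8, 53.2 and 55.5 in N2 and 149.6, 172 and 114 in the met-2 double mutant. The changes were -4.96 ± 0.44 for met-2 against N2 and 6.47 ± 0.40 for met-2;nrde-3 against met-2 (edgeR adjusted p = 2.27e-10 and 1.04e-13). I:9927001-9928000 had 2 reads in the met-2 libraries together, 50 in N2, 101 in set-25 and 152 in met-2;nrde-3, and is given no fold change. Of the 201 windows, 30 had a met-2 mean under 0.2 of the N2 mean. For 14 it was under 0.1, a limit at which other windows were not counted. The share under 0.2 was 14.9%, and it was 9.88% of the 6266 other windows with a set-25 mean of at least 20, the right end left out.

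Windows that rose in met-2 did so over both single and adjoining windows. At I:4339001-4340000 the normalised reads were 24.3, 19.8 and 20.5 in N2, 39.7, 56.8 and 54.1 in set-25, and 987, 859 and 840 in met-2. The met-2;nrde-3 libraries held 33.0, 90.5 and 66.5, so no other strain came near met-2 there. The changes were 5.48 ± 0.22 in met-2 against N2 and -3.86 ± 0.20 in met-2;nrde-3 against met-2 (edgeR adjusted p = 1.55e-17 and 4.22e-15). At I:10410020-10411019 the met-2 libraries held 295, 280 and 309 and the N2 libraries 15.95, 13.6 and 13.9, a change of 4.44 ± 0.22 (edgeR adjusted p = 5.92e-16). There met-2;nrde-3 held 5.22, 16.4 and 14.7, a change of -4.59 ± 0.24 from met-2 (edgeR adjusted p = 2.20e-15). Another window with a large fall from met-2 to met-2;nrde-3, I:8947001-8948000, changed by -3.81 ± 0.47 (edgeR adjusted p = 1.20e-07).

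The pair of windows at I:8134001-8136000 was higher in both single methyltransferase mutants and lower where nrde-3 was lost as well. In I:8134001-8135000 the normalised reads were 27.7, 29.4 and 35.7 in N2, 269, 245 and 225 in set-25 and 721, 767 and 767 in met-2. They were 20.7, 7.80 and 27.0 in nrde-3, 67.2, 76.9 and 51.1 in the set-25 double mutant and 116.5, 72.0 and 108 in the met-2 double mutant. Both double mutants thus lay above all libraries of N2 and nrde-3 and below all libraries of set-25 and met-2. The choice asked for set-25 above N2 and for set-25;nrde-3 above nrde-3. The difference of met-2 from N2 was 4.69 ± 0.20, and that of set-25;nrde-3 from set-25 was -1.91 ± 0.20 (edgeR adjusted p = 5.72e-17 and 2.20e-07). The met-2 double mutant differed from met-2 by -3.04 ± 0.19 and from nrde-3 by 2.41 ± 0.26 (edgeR adjusted p = 1.10e-13 and 1.68e-07). The next window, I:8135001-8136000, had a met-2 change of 4.06 ± 0.48 and a change from set-25 to set-25;nrde-3 of -2.45 ± 0.53 (edgeR adjusted p = 5.79e-08 and 0.00414), from 12 reads in N2, 65 in set-25 and 10 in the set-25 double mutant.

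In the 4 windows with both ratios of at least 5, the choice required the set-25 strains to be higher. The met-2 strains, which it did not use, were higher there too. The N2 and nrde-3 libraries are shared with the choice, in which low means helped a window in. The 4 windows were I:14679020-14680019, I:11495020-11496019, II:2269017-2270016 and I:14678020-14679019. In the first of them the N2 libraries held 4.20, 3.96 and 3.30 normalised reads and the nrde-3 libraries 1.48, 4.87 and 4.998. The values were 52.2, 51.6 and 54.1 in set-25, 110.2, 101 and 102 in the set-25 double mutant, 35.3, 39.5 and 41.2 in met-2 and 97.4, 68.7 and 96.7 in the met-2 double mutant. Every library without a methyltransferase lay above every library of N2 and nrde-3, an order that the choice favoured for the set-25 strains. The difference was 3.40 ± 0.30 for met-2 against N2 and 4.39 ± 0.31 for met-2;nrde-3 against nrde-3 (edgeR adjusted p = 1.73e-10 and 9.72e-11). In both pairs the double mutant was the higher one, by 1.08 ± 0.21 over met-2 and 1.00 ± 0.20 over set-25 (edgeR adjusted p = 1.30e-04 and 0.00255). Its top bin, at I:14679040-14679059, had 0 reads in N2 and nrde-3 and means of 10.5 in set-25, 19.5 in set-25;nrde-3, 10.4 in met-2 and 10.7 in the met-2 double mutant.

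At I:11495020-11496019 the 4 strains without a methyltransferase were again the high ones, with means of 7.34 ± 4.03 (SD, n = 3) normalised reads in N2, 8.53 ± 3.63 in nrde-3, 84.8 ± 15.3 in set-25, 143 ± 15.4 in set-25;nrde-3, 62.9 ± 5.36 in met-2 and 119 ± 15.4 in the met-2 double mutant. Its met-2 changes were 3.10 ± 0.28 over N2 and 3.72 ± 0.29 for met-2;nrde-3 over nrde-3 (edgeR adjusted p = 2.57e-10 and 4.08e-10). II:2269017-2270016, the last of 3 adjoining chosen windows, held 5.88, 3.96 and 5.94 in N2 and 92.6, 112 and 115 in met-2, which overlapped with 80.0, 104 and 87.2 in the met-2 double mutant. Its changes were 4.43 ± 0.25 for met-2 over N2 and 3.40 ± 0.26 for met-2;nrde-3 over nrde-3 (edgeR adjusted p = 1.33e-14 and 3.05e-10). I:14678020-14679019, beside the first of the 4, had met-2 changes of 2.94 ± 0.44 and 3.21 ± 0.45 (edgeR adjusted p = 2.80e-06 and 1.25e-05). How the authors treated reads that map to several places is not given in the sources used here, so reads shared between copies of a sequence cannot be told apart from reads of 1 place.

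**Figure D4:**
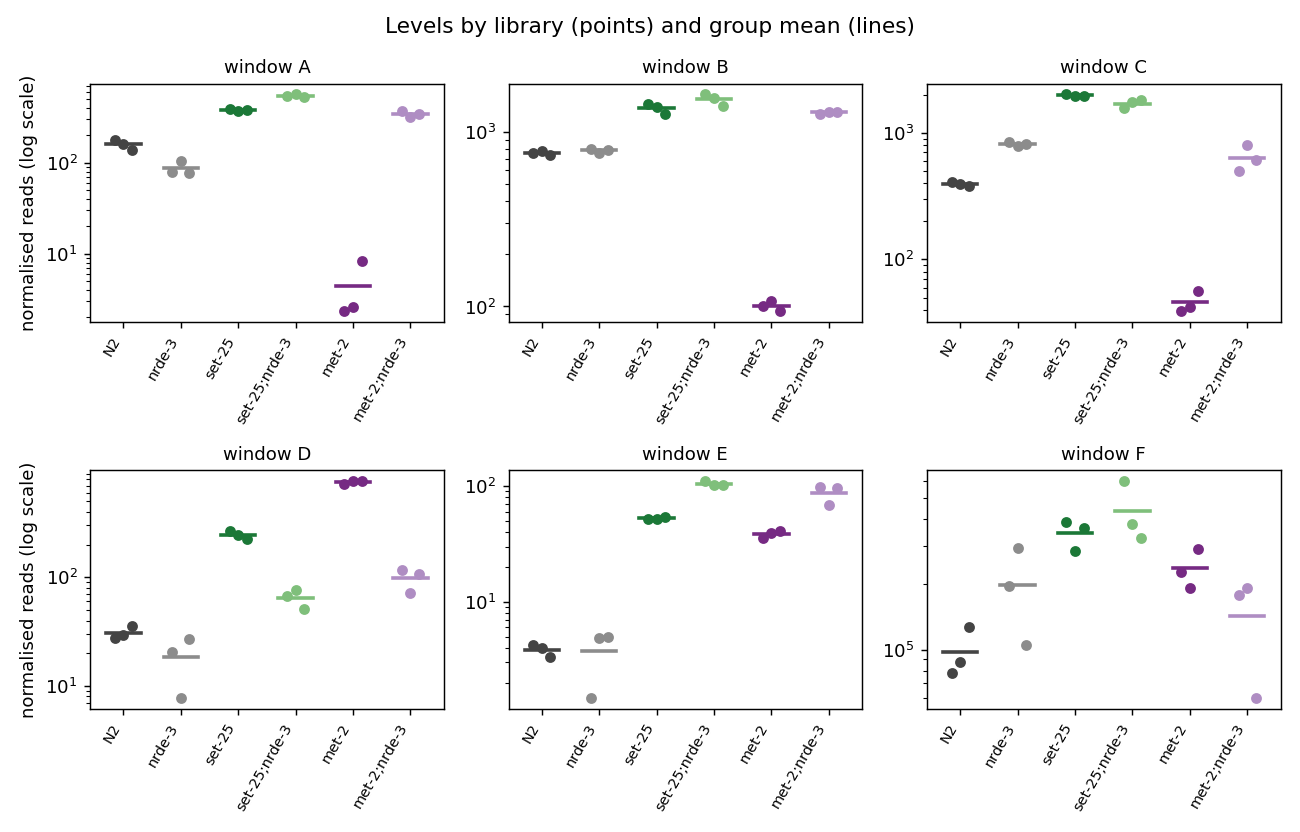
Normalised reads by library (points, log scale) with group means (lines, n = 3) in 6 chosen windows. They are I:3107001-3108000 (A), II:3812017-3813016 (B), I:5271001-5272000 (C), I:8134001-8135000 (D), I:14679020-14680019 (E) and I:15067020-15068019 at the right end of chromosome I (F). By the choice, set-25 lies above N2 in each. The met-2 group is the lowest in A, B and C, the highest in D, and above N2 in E and F.

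The 11 chosen windows at the right end adjoin each other, from I:15060020 to I:15071019, where a repeated array is known to lie, so they are not independent. Their set-25 to N2 ratios were 2.55 to 3.77 and their set-25;nrde-3 to nrde-3 ratios 1.54 to 2.40. The highest set-25 mean, at I:15065020-15066019, was 388183 ± 72008 normalised reads (SD, n = 3), against 123253 ± 43122 in N2. Libraries of a strain differed more here than elsewhere. Relative to the N2 mean, the median of the 11 windows was 0.798, 0.908 and 1.29 in the N2 libraries, 2.04, 3.39 and 1.22 in nrde-3 and 3.80, 2.78 and 3.75 in set-25. It was 5.76, 4.52 and 4.09 in the set-25 double mutant, 2.56, 1.97 and 3.07 in met-2 and 1.39, 1.60 and 0.600 in the met-2 double mutant. So nrde-3 and met-2;nrde-3 overlapped N2, and met-2 did not. Set-25 and set-25;nrde-3 did not overlap N2 either, but the choice asked for high means in both. In edgeR all 11 windows were higher in met-2 than in N2, 8 were higher in nrde-3 than in N2, and 9 were lower in met-2;nrde-3 than in met-2. Over all windows tested these calls made up 15.4%, 2.26% and 18.9%. The last 2 windows of the chromosome, beyond the chosen ones, had set-25 to N2 ratios of 0.875 and 0.891.

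**Figure D5:**
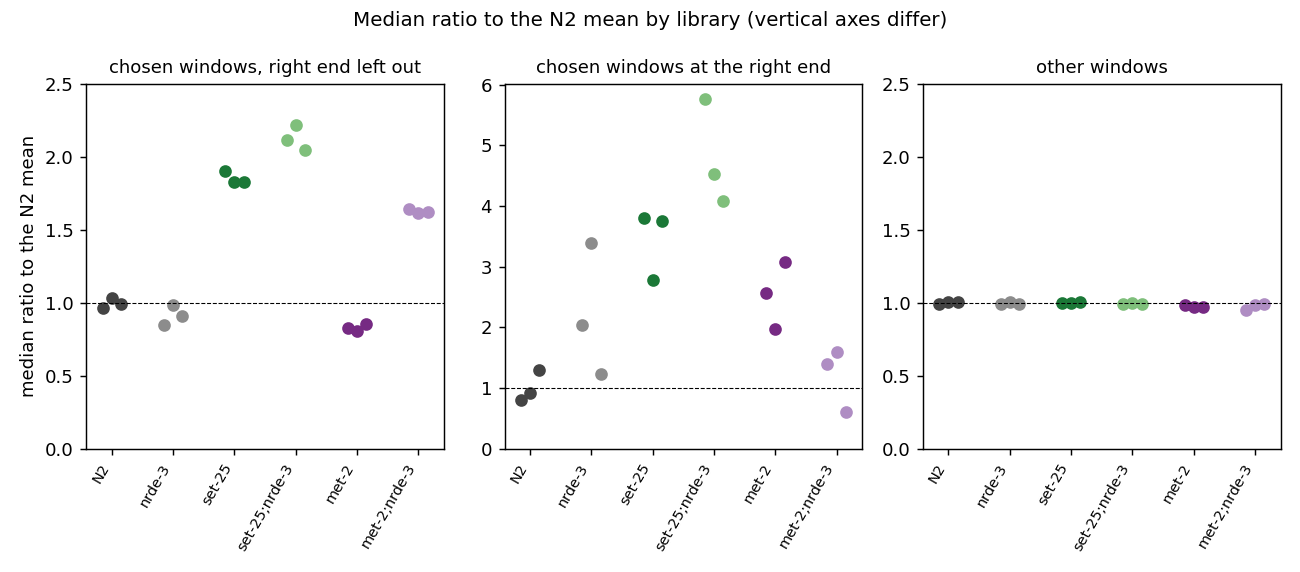
Median ratio of normalised reads to the N2 mean, 1 point per library, over the 201 chosen windows outside the right end of chromosome I, the 11 chosen windows there, and the 6266 other windows outside that end with a set-25 mean of at least 20 (vertical axes differ). In the first panel the set-25 strains stand at 1.83 to 2.22 by the choice, met-2 at 0.808 to 0.850 and met-2;nrde-3 at 1.62 to 1.64.

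Loss of nrde-3 alone was compared with N2, a contrast between the 2 groups in which the choice asked for low means. In edgeR 15 of the 212 windows were higher in nrde-3 and 15 lower, 7.08% each, against 2.26% and 1.69% of all windows tested, and 8 of the 15 higher ones belonged to the right end of chromosome I. Among the called windows, falls were largest at I:3104001-3105000, I:8948001-8949000 and I:11174020-11175019, with changes of -1.94 ± 0.43, -1.75 ± 0.33 and -1.64 ± 0.24 (edgeR adjusted p = 0.00626, 0.00128 and 2.88e-05). Without nrde-3 replicate 2 the first of these was -1.46 (edgeR adjusted p = 0.0875). Called rises outside the right end were largest at I:5271001-5272000, by 1.05 ± 0.13 (edgeR adjusted p = 1.65e-06). Those at I:6409001-6410000 and II:1076017-1077016 were 0.67 ± 0.18 and 0.66 ± 0.17 (edgeR adjusted p = 0.0237 and 0.0179). Both of these calls were lost without N2 replicate 1 (0.60 and 0.54) and without nrde-3 replicate 2 (0.52 and 0.63). The first was also lost without N2 replicate 2 (0.70), N2 replicate 3 (0.74) and nrde-3 replicate 1 (0.69), and the second without nrde-3 replicate 3 (0.65). Both were lost too under library totals (0.37 and 0.38, edgeR adjusted p = 0.519 and 0.517) and with no filter on low counts (edgeR adjusted p = 0.0828 and 0.133). Higher windows numbered 4, 8 and 3 without N2 replicate 1, N2 replicate 2 and nrde-3 replicate 2. Library totals gave 5 higher and 17 lower, with the median of all windows moved by -0.29. Of all 10730 windows tested, totals gave 38 higher and 203 lower.

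Setting the set-25 double mutant beside set-25, the groups in which the choice asked for high means, edgeR called 27 windows higher and 3 lower, or 12.7% and 1.42%, against 3.78% and 1.91% of all windows tested. None of the 11 right-end windows was called here. The largest called rises were 1.27 ± 0.23 at I:11173020-11174019, 1.18 ± 0.18 at I:11174020-11175019 and 1.14 ± 0.22 at I:3749001-3750000 (edgeR adjusted p = 6.07e-04, 9.40e-05 and 0.00173). Under library totals the first and the last of these calls were lost, with changes of 1.06 and 0.94 (edgeR adjusted p = 0.0517 and 0.119). In the first, set-25 held 55.6, 64.6 and 55.1 normalised reads and set-25;nrde-3 held 138, 146 and 137, with no overlap. The same window held 27.7, 24.9 and 25.1 in N2, 14.8, 9.75 and 5.997 in nrde-3, and 5.49, 4.30 and 1.83 in met-2. The 3 lower windows were the pair at I:8134001-8136000 and I:1937001-1938000, which changed by -2.39 ± 0.51 (edgeR adjusted p = 0.00374). Higher windows numbered 16 without set-25 replicate 2, 16 without set-25 replicate 3 and 17 without set-25;nrde-3 replicate 2. Library totals called 2 higher and 3 lower, with the median of all windows moved by -0.21. Of all 10730 windows tested, totals called 25 higher and 152 lower.

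A run of 5 chosen windows at I:3395001-3400000 differed from the others in met-2, where calls went both ways within one stretch. Summed over the run, N2 held 381, 421 and 390 normalised reads, nrde-3 held 222, 213 and 258, set-25 held 846, 705 and 658, and set-25;nrde-3 held 1330, 1336 and 1248. The met-2 libraries held 510, 612 and 611 and those of met-2;nrde-3 held 842, 757 and 803. Its first window, I:3395001-3396000, fell in met-2 by -1.78 ± 0.25, and its last, I:3398001-3399000 and I:3399001-3400000, rose by 0.99 ± 0.12 and 0.88 ± 0.23 (edgeR adjusted p = 9.63e-07, 1.08e-07 and 0.0034). All 5 were higher in met-2;nrde-3 than in nrde-3, with changes of 1.51 to 1.84.

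The 212 windows formed 109 single windows and 40 runs of 2 or more, and outside the right end 39 runs held 92 windows. In 9 of these 39 runs all windows were higher in met-2, in 12 all were lower, in 10 none was called, and in 1, described above, both calls occurred. Runs among all windows tested were not counted, so these counts do not set the chosen runs apart. Of 53 pairs of adjoining chosen windows outside the right end, 31 had both windows called in the same direction, or 58.5%. This held for 22.3% of 8221 adjoining pairs among all windows tested. Single chosen windows there were also called more often, 27.4% higher and 32.3% lower, against 15.4% and 23% of all windows tested. The 2 shares of pairs therefore do not compare agreement of neighbours alone. Adjoining windows can hold parts of 1 transcript and are not independent loci. One run with a rise throughout, the 4 windows at I:7528001-7532000, summed to 332 ± 38.9 (SD, n = 3) normalised reads in N2, 737 ± 27.6 in set-25, 1145 ± 145 in set-25;nrde-3, 1303 ± 82.2 in met-2 and 608 ± 49.0 in the met-2 double mutant. Another, the 3 windows at II:1977017-1980016, summed to 74.9 ± 16.9 in N2, 121 ± 15.6 in set-25, 799 ± 109 in met-2 and 143 ± 5.54 in the met-2 double mutant. These 2 runs were chosen as examples after their values were seen.

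Chosen windows were spread over all of the covered regions at unequal density, which is given here as a description. Outside the right end of chromosome I, 3.11% of the 6467 windows with a set-25 mean of at least 20 were chosen. The share was 7.96% between 3 and 4 Mb of chromosome I, with 27 of 339 windows, and 8.33% between 2 and 3 Mb of chromosome II, with 22 of 264. Between 12 and 13 Mb of chromosome I it was 0.388%, with 1 of 258. Within windows, the bin with most reads held a median of 20.5% of the reads in the 201 windows (quartiles 13.7% and 26.2%), and 19.4% in the 6266 other windows (14.1% and 27.6%). That bin was the same in N2 and in set-25 in 121 of the 201 windows, or 60.2%, and in 66.7% of the others.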

How the data were processed

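Small RNA was treated with TAP, which makes capped and triphosphate ends fit for adapters, and sequenced as single reads of 50 bases. Per the labels, the authors removed adapters and merged identical reads (FASTX-Toolkit), then aligned to WS220 (ce10) using QuasR. Versions are not given. The deposited table has counts: whole reads in each 20-bp bin, strands not separated. A scaling by total reads and a split by length are named by the series text but do not show in whole numbers, and the counts were taken as unscaled.

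Bins were summed into windows of 1000 bp by their first base. Levels are reads divided by median-of-ratios factors. Tests used edgeR 4.0.16 under R 4.3.3: all 18 libraries, 1 coefficient per group, filterByExpr with a minimum count of 10, TMM, glmQLFTest, and Benjamini-Hochberg adjustment over 10730 windows at 0.05. Log2 fold changes come from this fit, so they differ slightly from ratios of levels, and a standard error is the fold change over the root of its F statistic. The design has no replicate block: same-numbered libraries were no more alike than the rest (median correlation of deviations -0.00138 over 45 pairs). The alternatives were RLE factors, scaling by totals, DESeq2 1.42.0, other count filters, fits of the compared groups alone, a block, omitted libraries or right end, and voom (limma 3.58.1), and tables and plots pandas 2.3.3, numpy 2.4.6 and matplotlib 3.10.9 under Python 3.11.15.

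The windows, and the rule that names 29 of them (highest set-25 means, highest ratios, largest called changes per comparison, longest runs), were chosen with earlier results of these data known. A window with 3 reads or fewer in a group gets no fold change against it. Not used here: gene names, read lengths, strand and sequence.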

Additional observations from a re-analysis of the deposited data

Results flagged for a closer look

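At 4 windows the values stood out for a met-2 difference that was unequal with and without nrde-3, by the interaction test in edgeR, which gave the 2 highest and 2 lowest values among the chosen windows outside the right end of chromosome I. The interaction was 7.07 ± 0.29 at I:3107001-3108000 and 7.03 ± 0.30 at I:3109001-3110000 on the log2 scale (edgeR adjusted p = 4.32e-17 and 1.28e-16). It was -3.96 ± 0.38 at I:4339001-4340000 and -3.71 ± 0.47 at I:10410020-10411019 (edgeR adjusted p = 2.24e-09 and 3.03e-07). The interaction shares the N2 and nrde-3 libraries with the choice. The part of library complexity in these values was not tested.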

How the results depend on the processing

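Of 119 counts of chosen windows recomputed under other settings than leaving out 1 library, 102 stayed within 1.5 times the value given. Under a minimum count of 100, 88 chosen windows were left in the test. Of these, 33 were lower in met-2, 42 higher in met-2;nrde-3 than in met-2 and 42 above 0 in the interaction. For set-25;nrde-3 against set-25, 1 was lower. Of all 3126 windows tested these calls numbered 1122, 1137, 1038 and 248. The share lower in met-2 was thus near that of all windows. Windows lower in met-2;nrde-3 than in nrde-3 numbered 2 with DESeq2, 10 with no filter and 0 with only the groups compared. Without the right end of chromosome I there were 0. Over all windows these settings called 488 of 10730, 458 of 20957, 159 of 8375 and 442 of 10104 lower. The count of chosen windows also moved without both low-complexity libraries, a fit that leaves 1 met-2;nrde-3 library. Windows higher in nrde-3 than in N2 numbered 5 under library totals and 7 without the right end. Over all windows these settings called 38 of 10730 and 246 of 10104 higher. For set-25;nrde-3 against set-25 the higher windows numbered 2 under totals, 41 with only the groups compared and 49 with voom weights. Over all windows the higher ones were 25 of 10730, 590 of 8631 and 759 of 10730. The rule chose 31 windows under totals, 48 at a ratio of 2 and 64 at a set-25 mean of 100. The causes were not tested. The settings on low-complexity libraries, voom and the right end were added after seeing the data.

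With each library left out in turn, counts ran from 56 to 63 higher and 54 to 63 lower for met-2 against N2, 68 to 81 and 0 to 9 for met-2;nrde-3 against nrde-3, 90 to 97 and 38 to 51 for met-2;nrde-3 against met-2, and 73 to 89 above and 37 to 42 below 0 for the interaction. They ran from 3 to 15 and 10 to 14 for nrde-3 against N2, 16 to 21 and 3 to 3 for set-25;nrde-3 against set-25, and the rule chose 196 to 236. With a replicate block the test called 65 higher and 62 lower in met-2, and no count moved by over 1.5 times. Among single windows named, 15 of 494 recomputed calls were lost and none changed direction. The few reads of many chosen windows limit the smaller differences.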
